A study of Mus musculus with 2 samples.

Results

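The prostaglandin synthesis genes described here were the 6 genes Ptgs1, Ptgs2, Ptgds, Ptgis, Ptges and Ptges3, chosen by name out of 25595 genes listed in either of 2 single-cell RNA-seq libraries of the mouse cerebral cortex. One library came from N-PRα-KO mice, which carried Nestin-Cre and floxed Pdgfra alleles, and 1 from WT mice of the strain C57BL/6J. In both, cortex and meninges were dissociated together, and magnetic sorting with an antibody to CD140a, the receptor that Pdgfra encodes, enriched the cells. The series asks how varied activated fibroblasts are in the poorly myelinated cortex of the knockout. Nestin-Cre is active in the neural lineage, so fibroblasts outside that lineage are not its usual target. Animal age, sex and number are in no label, so a difference in any of these cannot be told apart from genotype. Below, N-PRα-KO and WT stand for these single libraries.

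Prostaglandins are lipid signals made in steps. Phospholipases release arachidonic acid from membranes, the cyclooxygenases Ptgs1 and Ptgs2 turn it into the unstable intermediate PGH2, and a terminal synthase turns PGH2 into 1 product. Ptgds makes prostaglandin D2 and is also secreted into the cerebrospinal fluid as the carrier protein beta-trace, for which the leptomeninges, the choroid plexus and mature oligodendrocytes are known sources. Ptgis makes prostacyclin, Ptges is the inducible membrane synthase of prostaglandin E2, and Ptges3 is a cytosolic E2 synthase better known as p23, a partner of the chaperone Hsp90.

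Values are unique molecules (UMIs), summed over the cells of a class and scaled so that each class totals 1000000 (CPM). With a single library for each genotype, differences have no replicate check and none was tested. Intervals are 95% and cover counting error only, exact Poisson for CPM, exact Clopper-Pearson for shares of cells and exact conditional for log2 ratios, which are all N-PRα-KO over WT. Depth was 41982217 UMIs over 8336 barcodes for N-PRα-KO, against 43459947 over 11438 for WT. The limits of 300 genes or more and 25% mitochondrial UMIs or fewer kept 4196 N-PRα-KO cells and 10069 WT cells, with medians of 5790.5 and 3284 UMIs. Of the cell indexes, 105 occurred in both libraries. Pdgfra stood at 1933 CPM in oligodendrocyte-lineage-like cells of N-PRα-KO and 4637 CPM in those of WT, and at 652 and 698 CPM in fibroblast-like cells. The 12 listed fibroblast markers were all detected in the fibroblast-like class of both libraries.

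Promoters are shown for the 3 members whose levels set the cell classes apart: the 2 cyclooxygenases and Ptgds. Each is the 250 bases before the annotated start, from RefSeq on GRCm38.p6, written 5′ to 3′ on the gene's own strand. The RefSeq start of Ptgds lies inside the longer GENCODE gene, so its window does too. The windows are chr1:150099781-150100030 (plus strand) for Ptgs2, chr2:36230176-36230425 (plus strand) for Ptgs1 and chr2:25469750-25469999 (minus strand) for Ptgds. Capitals mark a match to TTGCGCAA (a C/EBP motif) in Ptgs2 and to TGANTCA (an AP-1 motif) in Ptgds.
Ptgs2: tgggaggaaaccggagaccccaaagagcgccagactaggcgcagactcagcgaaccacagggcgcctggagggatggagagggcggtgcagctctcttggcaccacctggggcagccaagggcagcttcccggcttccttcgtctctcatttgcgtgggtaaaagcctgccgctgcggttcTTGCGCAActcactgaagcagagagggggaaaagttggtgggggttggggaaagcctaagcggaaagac
Ptgs1: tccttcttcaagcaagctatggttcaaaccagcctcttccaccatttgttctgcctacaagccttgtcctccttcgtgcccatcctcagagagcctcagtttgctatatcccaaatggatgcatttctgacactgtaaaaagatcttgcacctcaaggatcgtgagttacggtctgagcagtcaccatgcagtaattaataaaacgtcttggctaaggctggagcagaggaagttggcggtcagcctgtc
Ptgds: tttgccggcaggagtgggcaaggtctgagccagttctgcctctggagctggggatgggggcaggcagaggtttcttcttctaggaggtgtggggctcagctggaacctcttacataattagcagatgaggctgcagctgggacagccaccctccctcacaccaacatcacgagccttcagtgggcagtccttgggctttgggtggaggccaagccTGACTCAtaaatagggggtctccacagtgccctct
The motifs were chosen after the sequences were seen and were searched on both strands. TTGCGCAA lies 69 to 62 bases before the Ptgs2 start and occurs in 0.164% of the 32851 promoter windows of the same length. TGACTCA lies 35 to 29 bases before the Ptgds start, and 6.75% of windows hold a match to TGANTCA. None of these 3 windows holds TGACG (17.8% of all windows) or TATAA (22.8%), and the Ptgs1 window holds none of the 4 motifs. Of the 6 members, 5 had a promoter entry, and Ptgis had none.

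The members fell into different cell classes. Ptgs1 was highest in microglia-like cells, Ptgds in fibroblast-like cells, Ptgs2 in WT fibroblast-like and microglia-like cells, Ptgis in vessel and fibroblast classes, Ptges in fibroblast-like and endothelial-like cells, and Ptges3 was present in every class. Among fibroblast-like cells, 1010 in N-PRα-KO and 622 in WT, all 6 members reached 20 CPM in at least 1 library. At least a 2-fold difference was seen for 2 of them: Ptgis was higher in N-PRα-KO, where 14.8% of 7154 measured genes were at least 2-fold higher, and Ptgs2 was lower, where 8.78% were at least 2-fold lower. In microglia-like cells 4 members reached 20 CPM: Ptgds was at least 2-fold higher (background 15.7%), and Ptgs2 and Ptges3 at least 2-fold lower (background 9.47%). In endothelial-like cells 5 did: Ptgs1, Ptgds and Ptgis were at least 2-fold higher (background 16.8%) and Ptges3 at least 2-fold lower (background 9.54%). The fibroblast-like cells of the libraries lay mostly in different clusters: cluster 7 held 630 N-PRα-KO cells and 0 WT cells, cluster 11 held 2 and 499, cluster 19 held 327 and 14, and cluster 23 held 51 and 109.

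**Figure D1:**
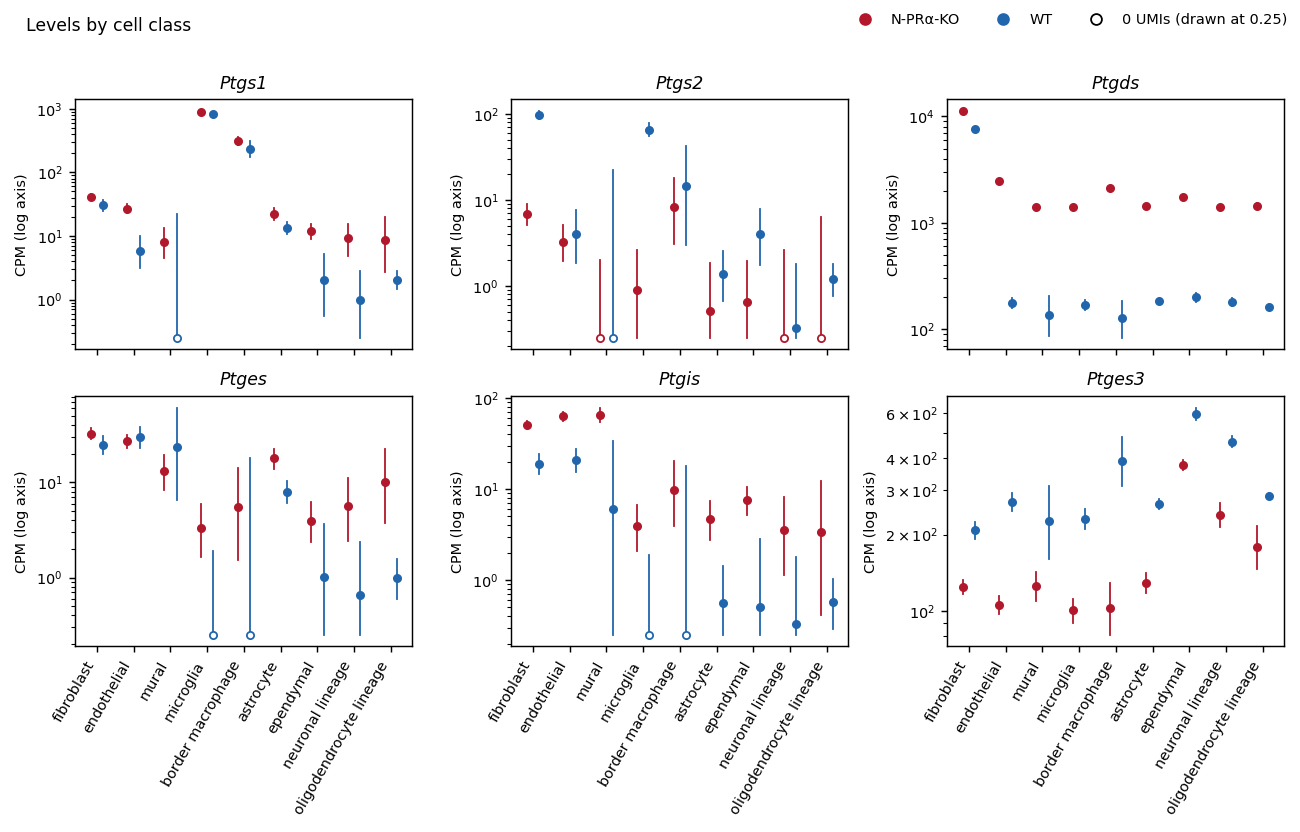
Level of each member in 9 cell classes, in CPM on log axes, for the N-PRα-KO library (red) and the WT library (blue). Bars are 95% Poisson intervals and open circles are classes with 0 UMIs. Ptgs1 peaks in microglia-like cells of both libraries (893 and 817 CPM), and Ptgds peaks in fibroblast-like cells above a level that is nearly flat across the other classes within a library.

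Ptgs1, the constitutive cyclooxygenase, was a gene of brain macrophages here. Its level in microglia-like cells was 893 CPM in N-PRα-KO (2978 UMIs in 582 cells, interval 861 to 925) and 817 CPM in WT (1598 UMIs in 639 cells, interval 777 to 858), a log2 ratio of 0.13 (0.04 to 0.22). Border macrophage-like cells followed with 313 CPM (273 to 356) in N-PRα-KO and 234 CPM (173 to 310) in WT, and the interval of their log2 ratio, -0.04 to 0.90, spans 0. Microglia-like cells held 77.2% of the Ptgs1 UMIs of N-PRα-KO and 83.8% of those of WT. A Ptgs1 UMI was found in 95.9% of N-PRα-KO and 81.5% of WT microglia-like cells, and in 81.7% and 74.2% once each cell was thinned to 2000 UMIs. In neuronal-lineage-like cells, taken as a class without Ptgs1, the share was 4.91% in N-PRα-KO, against 0.315% in WT (median depths 4336 and 2560.5 UMIs).

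Outside macrophages Ptgs1 was low. Fibroblast-like cells held 41.4 CPM (36.9 to 46.4) in N-PRα-KO and 30.6 CPM (25.04 to 37.1) in WT, a log2 ratio of 0.43 (0.11 to 0.77). Within them, pial-perivascular-like cells had 49.8 and 58.9 CPM and arachnoid-like cells 33.2 and 29.04 CPM, in each pair with overlapping intervals. In dural-like cells they did not overlap, with 19.05 CPM (13 UMIs, 10.1 to 32.6) in N-PRα-KO and 2.51 CPM (2 UMIs, 0.303 to 9.05) in WT. Choroid plexus-like cells of N-PRα-KO, 39 cells, had 63.1 CPM (34 UMIs). Astrocyte-like cells had 22.3 and 13.4 CPM. Among N-PRα-KO astrocyte-like cells, cluster 15 had 26.97 CPM (75 UMIs) and cluster 21, led by Thbs4, 10.3 CPM (11 UMIs). Among WT astrocyte-like cells, cluster 4, led by Hapln1, Grm3 and Aqp4, had 20.6 CPM (90 UMIs), cluster 20 had 8.67 CPM (4 UMIs) and cluster 3, led by Tnc and Thbs4, 1.25 CPM (3 UMIs). In endothelial-like cells Ptgs1 was 26.9 CPM (148 UMIs) in N-PRα-KO and 5.86 CPM (13 UMIs) in WT, a log2 ratio of 2.20 (1.38 to 3.14).

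Ptgs2, the inducible cyclooxygenase, had the widest gap between the libraries among the members in fibroblast-like cells. It was 6.88 CPM (50 UMIs, interval 5.11 to 9.07) in N-PRα-KO and 97.0 CPM (329 UMIs, 86.8 to 108) in WT, 14.1-fold lower in N-PRα-KO, with a log2 ratio of -3.82 (-4.28 to -3.38). In microglia-like cells the N-PRα-KO library held 3 UMIs, 0.899 CPM (0.185 to 2.63), and the WT library 128 UMIs, 65.4 CPM (54.6 to 77.8), a log2 ratio of -6.18 (-8.48 to -4.61). These cells too lay mostly in different clusters: cluster 8 held 539 N-PRα-KO cells and 1 WT cell, and cluster 5 held 43 and 638. Within cluster 5 Ptgs2 was 6.70 CPM (2 UMIs, 0.812 to 24.2) in N-PRα-KO and 65.6 CPM (128 UMIs, 54.8 to 78.04) in WT. Other classes ranged from 0 to 8.34 CPM in N-PRα-KO and from 0 to 14.6 CPM in WT. Border macrophage-like cells were the highest of these, with 6 and 3 UMIs. In N-PRα-KO their 8.34 CPM (3.06 to 18.2) was above the level in fibroblast-like cells, with overlapping intervals. Endothelial-like cells of N-PRα-KO held 18 UMIs, 3.27 CPM (1.94 to 5.17).

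Within fibroblasts the Ptgs2 signal sat in arachnoid-like cells, the sub-type led by genes such as the transporter Slc22a2 in both libraries. Slc22a2 is itself on the arachnoid marker list that gave the name. That name depends on the scoring: scored over both libraries together, the sub-cluster with nearly all of the N-PRα-KO cells was named pial-like and the WT one got no name. These cells held 47 of the 50 fibroblast UMIs in N-PRα-KO (94.0%) and 307 of 329 in WT (93.3%). Each library gave 292 such cells, at 24.8 CPM (18.2 to 32.9) in N-PRα-KO and 223 CPM (199 to 249) in WT, a log2 ratio of -3.17 (-3.65 to -2.72). Few of them carried it: 22 N-PRα-KO cells (7.53%) and 43 WT cells (14.7%) had a UMI, or 2.75% and 10.8% after thinning, and the highest single cell had 9 and 34 UMIs. Pial-perivascular-like cells held 0 UMIs in 601 N-PRα-KO cells, where 3 counts would be 0.729 CPM, and 9 UMIs in 153 WT cells, 12.05 CPM (5.51 to 22.9). Of these 9 WT UMIs, 8 lay in sub-cluster 4. Dural-like cells held 3 UMIs and 1 UMI, and dividing fibroblasts 0 and 2 UMIs. The unnamed sub-cluster 8 held 0 UMIs in 3 N-PRα-KO cells and 10 UMIs in 18 WT cells, 73.1 CPM (35.1 to 134).

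Other genes differed between the 2 libraries in the same direction as Ptgs2. Of 16 immediate early genes, transcripts that cells make within minutes of stimulation or dissociation, 15 were lower in fibroblast-like cells of N-PRα-KO, with a median log2 ratio of -2.26, against -0.03 over all measured genes. This list was chosen after results of these data had been seen. In arachnoid-like cells 15 of 16 were lower (median -2.02) and in microglia-like cells 16 of 16 (median -1.39, against -0.02 over all measured genes). In border macrophage-like cells 11 of 16 were lower (median -0.58, against -0.07). At least 2-fold lower were 13 of the 16 in fibroblast-like cells (background 8.78%) and 11 in microglia-like cells (background 9.47%). Fos was 524 CPM in fibroblast-like cells of N-PRα-KO and 3564 CPM in those of WT, and Atf3 was 13.3 and 193 CPM. Their part in the Ptgs2 difference was not tested. Ptgs2 also has the lowest GC content of the members over the last 500 bases of its transcript, 23.4%, and ratios ran with that content: across genes in fibroblast-like cells the Spearman rho was 0.53, with a median log2 ratio of -0.42 in the fifth of genes lowest in GC and 0.83 in the fifth highest. With this trend removed the Ptgs2 ratio was -3.27 in fibroblast-like cells and -5.50 in microglia-like cells.

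Ptgds, the prostaglandin D2 synthase, was a gene of fibroblasts in both libraries. In fibroblast-like cells it was 11219 CPM in N-PRα-KO (81540 UMIs) and 7639 CPM in WT (25921 UMIs), a log2 ratio of 0.55 (0.53 to 0.57). Among the 9 classes in which each library had 50 cells or more, that is 4.50 times the next highest level in N-PRα-KO and 38.2 times in WT. In the N-PRα-KO library 1.29% of genes, and in WT 1.92%, were over 3 times higher in fibroblast-like cells than in each of the other 8. The direction between libraries was not stable. With the GC trend removed the log2 ratio was -0.38, and with a mitochondrial limit of 60% in place of 25% and mitochondrial UMIs left out of totals it was -0.13.

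Many Ptgds UMIs lay in barcodes outside the limits on genes and mitochondrial UMIs. Barcodes left out by the filter held 25.04% of the Ptgds UMIs of N-PRα-KO and 49.7% of those of WT, while of the Ptgs1 UMIs they held 366 of 4277 and 61 of 2050. Barcodes with at least 5% of their non-mitochondrial UMIs from Ptgds numbered 62 among those left out and 81 among those kept in N-PRα-KO, and 79 left out and 35 kept in WT. Of those left out, 14 of 62 in N-PRα-KO and 22 of 79 in WT had under 300 genes. At the limit of 60%, 1229 N-PRα-KO and 792 WT cells were fibroblast-like, and Ptgds stood at 15528 and 17032 CPM with mitochondrial UMIs left out of totals. At the limit of 25% the same quantity was 13089 and 9236.

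In the other 8 of these classes Ptgds was nearly even within a library and far apart between them. It ranged from 1402 CPM in neuronal-lineage-like cells to 2495 CPM in endothelial-like cells of N-PRα-KO, and from 127 CPM in border macrophage-like cells to 200.2 CPM in ependymal-like cells of WT. The log2 ratio was between 2.97 and 4.06 in each of the 8. Microglia-like cells, taken as a class without Ptgds, had a UMI in 99.7% of cells in N-PRα-KO, against 33.96% in WT (median depths 5595.5 and 2744 UMIs), or 94.1% and 24.9% after thinning. Fibroblast-like cells had one in 99.7% and 72.7%, or 94.8% and 55.7% after thinning. The N-PRα-KO share in fibroblast-like cells was thus at the level of microglia-like cells. It does not tell these classes apart and is not read as expression, and its source was not tested. Choroid plexus-like cells, found almost only in N-PRα-KO (39 cells against 1), stood above this range with 3626 CPM (3467 to 3790), as did olfactory sensory neuron-like cells of that library, 51 cells, with 3008 CPM.

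**Figure D2:**
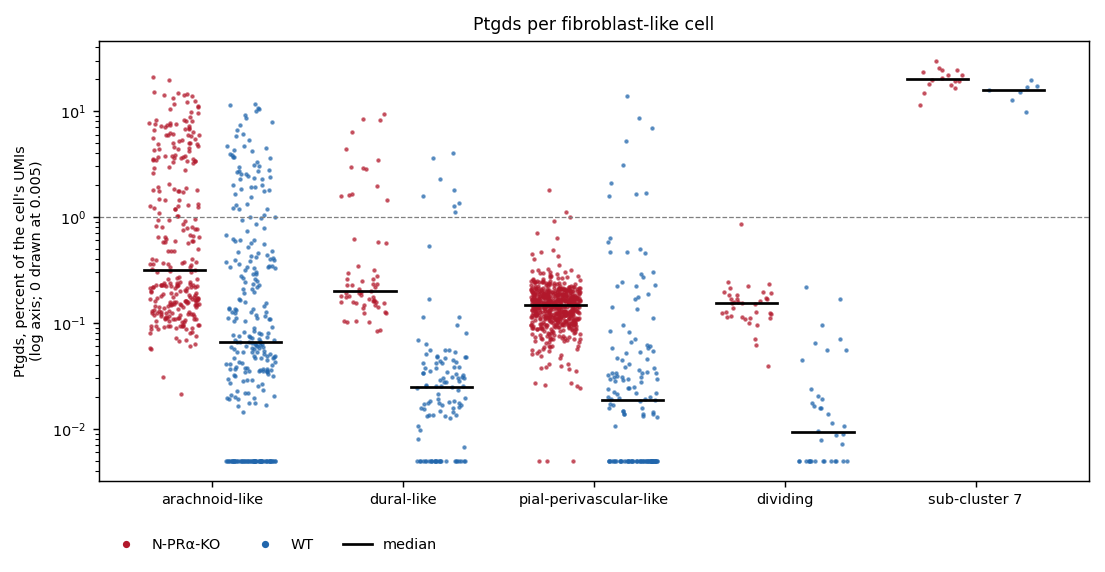
Ptgds as a percent of each fibroblast-like cell's UMIs, on a log axis, by sub-type, with the N-PRα-KO library (red) left of WT (blue) and the median as a black bar. Cells with 0 are drawn at the bottom and the dashed line marks 1%. Arachnoid-like cells spread over more than 2 orders of magnitude in both libraries, and all cells of sub-cluster 7 lie at 9.89% or more.

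Single cells showed that Ptgds was a mosaic in fibroblasts. The tenth of fibroblast-like cells richest in it held 82.6% of the fibroblast Ptgds UMIs in N-PRα-KO and 87.3% in WT. Arachnoid-like cells held most of the UMIs, 57.9% and 64.3%, at 24869 CPM (24645 to 25094) in N-PRα-KO and 12097 CPM (11914 to 12282) in WT, a log2 ratio of 1.04 (1.01 to 1.07), or 0.10 with the GC trend removed. Of the 292 cells in each, 104 N-PRα-KO cells (35.6%, 30.1 to 41.4) and 53 WT cells (18.2%, 13.9 to 23.1) gave at least 1% of their UMIs to Ptgds. The median arachnoid-like cell gave it 0.318% in N-PRα-KO and 0.0655% in WT, and the highest cell 21.05% and 11.6%. In N-PRα-KO, 1% was reached by 6 of 22 arachnoid-like cells with a Ptgs2 UMI (27.3%, 10.7 to 50.2) and by 98 of 270 without one (36.3%, 30.6 to 42.3). In WT it was reached by 7 of 43 (16.3%, 6.81 to 30.7) and 46 of 249 (18.5%, 13.9 to 23.9), so the intervals overlapped in each library.

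A small group had the highest Ptgds level. Sub-cluster 7, with 16 N-PRα-KO and 7 WT cells, gave Ptgds 11.4% to 29.9% of each cell's UMIs in N-PRα-KO and 9.89% to 19.6% in WT. The highest arachnoid-like cells, at 21.05% and 11.6%, lay within these ranges. Sub-cluster 7 held 24.6% and 15.0% of the fibroblast Ptgds UMIs. Over all its cells the level was 186275 CPM and 147168 CPM. Its other leading genes over the remaining fibroblasts were Atp13a5, Ppp1r1a, the matrix proteoglycan gene Fmod and the growth factor gene Bmp3. It had under 20 cells in each library, too few for a sub-type name, but carried arachnoid-list genes. Slc22a2 was at 204 and 151 CPM and Crabp2 at 344 and 340 CPM. Arachnoid-like sub-clusters 2 (N-PRα-KO) and 1 (WT) had 141 and 124 CPM, and 99.3 and 81.3 CPM. Wnt6 was also higher than there, while Aldh1a1, Gjb2, Gjb6 and Slc47a1 were lower and Aldh1a2 differed in direction. Whether sub-cluster 7 belongs with arachnoid-like cells was not tested. It held 1 Ptgs1 UMI and 1 Ptges UMI in N-PRα-KO and none in WT, and no Ptgs2 or Ptgis UMI in either. Without it the fibroblast log2 ratio of Ptgds was 0.39.

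The remaining sub-types differed in direction. Dural-like cells, led by Nov, Slc4a10 and Slc47a1, had 10213 CPM of Ptgds in N-PRα-KO (61 cells) and 1077 CPM in WT (114 cells), a log2 ratio of 3.25 (3.14 to 3.35). Slc47a1 is on the arachnoid marker list. It was at 712 and 623 CPM here, against 2.64 and 1.45 CPM in arachnoid-like sub-clusters 2 (N-PRα-KO) and 1 (WT). The dural-list gene Mgp was at 4082 and 3661 CPM here, against 486 and 35.6 CPM there, so the name rests on mixed markers. Dural-like cells at 1% or more of Ptgds were 14 of 61 and 8 of 114. Dividing fibroblasts had 1885 and 221 CPM, and none of the 37 and 38 cells reached 1%. Pial-perivascular-like cells had 1567 CPM in N-PRα-KO (601 cells) and 2204 CPM in WT (153 cells), a log2 ratio of -0.49 (-0.57 to -0.41). The N-PRα-KO level there is close to the 1424 CPM of microglia-like cells, and 3 of 601 cells reached 1%. The WT level came from few cells, 9 of 153 at 1% or more, and the median cell gave 0.148% in N-PRα-KO and 0.0187% in WT. Of the 1646 WT UMIs, 1302 lay in the 63 WT cells of sub-cluster 4, which had the arachnoid-list gene Gjb2 at 2198 CPM. The 86 WT cells of sub-cluster 5, also named pial-perivascular-like, held 173 UMIs. Sub-cluster 8, without a name, is led by oligodendrocyte precursor genes such as Lhfpl3 and is not read as a fibroblast sub-type. Its 18 WT cells had 20380 CPM of Ptgds (2788 UMIs, 10.8% of those of WT fibroblast-like cells), and 8 of them reached 1%. Its 3 N-PRα-KO cells had 1661 CPM (62 UMIs). Whether sub-cluster 8 mixes cell types was not tested.

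**Figure D3:**
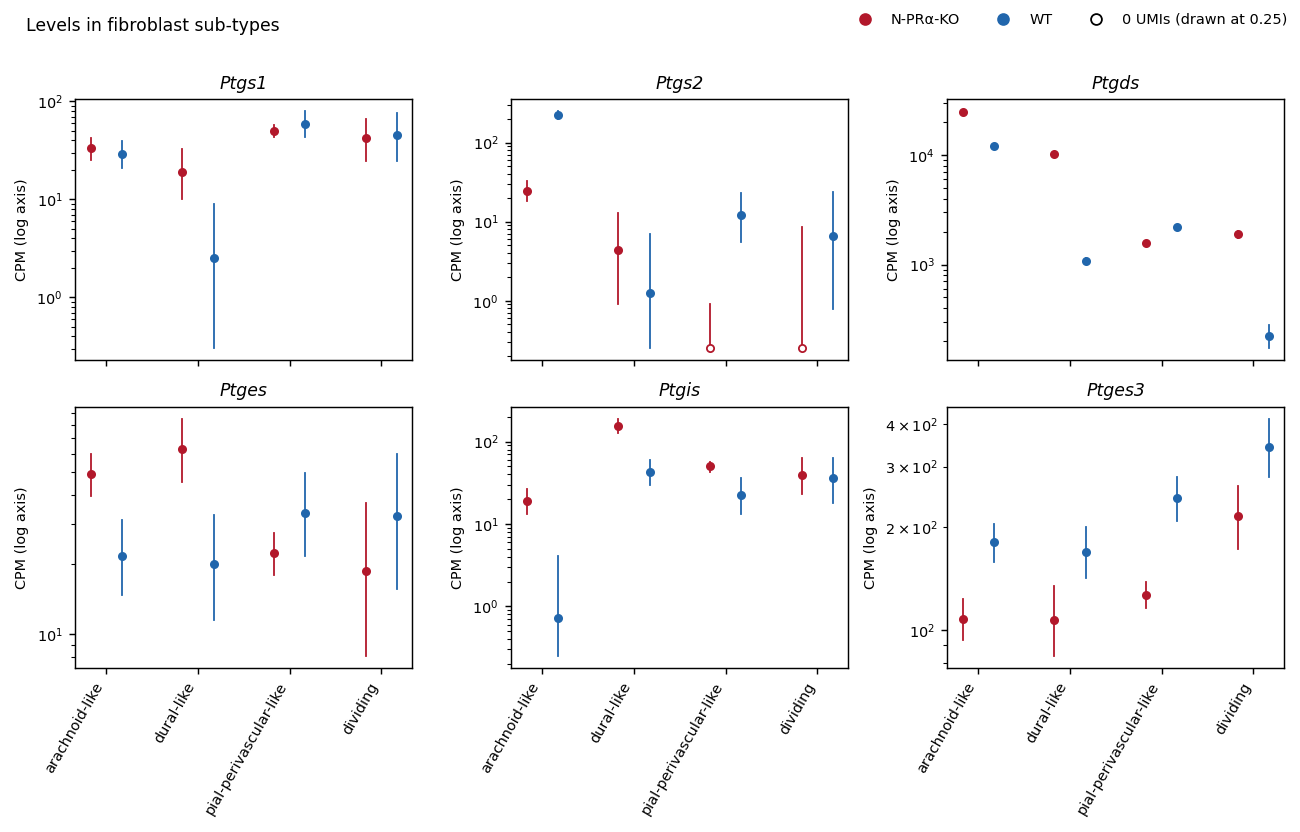
Level of each member in 4 fibroblast sub-types, in CPM on log axes, for the N-PRα-KO library (red) and the WT library (blue), with 95% Poisson intervals and open circles for 0 UMIs. Ptgs2 stands out in arachnoid-like cells (24.8 and 223 CPM), and Ptgis is highest in dural-like cells (155 and 42.6 CPM).

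Ptgis, the prostacyclin synthase, was highest in vessel and fibroblast classes. In fibroblast-like cells it was 50.1 CPM (364 UMIs, interval 45.1 to 55.5) in N-PRα-KO and 18.9 CPM (64 UMIs, 14.5 to 24.1) in WT, 2.66-fold higher, with a log2 ratio of 1.41 (1.02 to 1.82) or 0.70 with the GC trend removed. Dural-like cells had the highest level of the sub-types, 155 CPM (127 to 188) in N-PRα-KO, against 42.6 CPM (29.5 to 59.5) in WT, with a log2 ratio of 1.87 (1.30 to 2.47). Pial-perivascular-like cells had 49.8 and 22.8 CPM, a log2 ratio of 1.13 (0.42 to 1.94), and dividing fibroblasts 39.6 and 35.8 CPM, with an interval of the log2 ratio from -1.03 to 1.39. Arachnoid-like cells had 36 UMIs in N-PRα-KO, 18.97 CPM (13.3 to 26.3), and 1 UMI in WT, 0.726 CPM (0.0184 to 4.05).

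In vessel classes Ptgis was 62.9 CPM (56.4 to 69.8) in endothelial-like cells of N-PRα-KO and 20.7 CPM (15.2 to 27.7) in those of WT, a log2 ratio of 1.60 (1.15 to 2.08). All WT endothelial-like cells lay in cluster 14, and there the values were 122 CPM (101 UMIs in 78 cells) and 20.7 CPM. Mural-like cells had 120 UMIs in 367 N-PRα-KO cells, 65.4 CPM (54.2 to 78.2), and 1 UMI in 54 WT cells, 5.97 CPM (0.151 to 33.2). Border macrophage-like cells had 9.73 and 0 CPM, and the other 5 of the 9 classes ranged from 3.41 to 7.49 CPM in N-PRα-KO and from 0 to 0.575 CPM in WT. In N-PRα-KO, choroid plexus-like cells had 38.97 CPM (21 UMIs, 24.1 to 59.6) and olfactory sensory neuron-like cells 12.1 CPM (5 UMIs).

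Ptges, the inducible E2 synthase, was low everywhere. In fibroblast-like cells it was 32.6 CPM (237 UMIs, 28.6 to 37.04) in N-PRα-KO and 24.8 CPM (84 UMIs, 19.7 to 30.6) in WT, a log2 ratio of 0.40 (0.03 to 0.77) that was -0.27 with the GC trend removed. Dural-like cells had 63.0 CPM (45.6 to 84.9) in N-PRα-KO, against 20.04 CPM (11.4 to 32.5) in WT, with a log2 ratio of 1.65 (0.80 to 2.58). Arachnoid-like cells had 49.0 and 21.8 CPM, a log2 ratio of 1.17 (0.56 to 1.81). In pial-perivascular-like cells, with 22.4 and 33.5 CPM, the interval of the log2 ratio ran from -1.23 to 0.12. Endothelial-like cells had 27.1 and 29.8 CPM as a class, but the clusters differed: cluster 13, of N-PRα-KO cells alone, had 30.8 CPM, while in cluster 14 the levels were 6.06 CPM (5 UMIs) and 29.8 CPM (66 UMIs). Astrocyte-like cells had 17.9 CPM (69 UMIs) and 8.01 CPM (58 UMIs), a log2 ratio of 1.16 (0.63 to 1.69).

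Ptges3, the p23 co-chaperone, was found in each of the 9 classes compared and was lower in N-PRα-KO in all of them. It was lowest in microglia-like cells of N-PRα-KO (101 CPM) and in fibroblast-like cells of WT (208 CPM), and highest in ependymal-like cells of both (375 and 596 CPM). The log2 ratio ran from -1.92 in border macrophage-like cells to -0.66 in oligodendrocyte-lineage-like cells, and in fibroblast-like cells it was -0.74 (-0.88 to -0.60), with 124 CPM (904 UMIs) and 208 CPM (705 UMIs). With the GC trend removed these ratios were smaller, -0.43 in fibroblast-like cells and -0.16 in oligodendrocyte-lineage-like cells, but still below 0 in each class. With the lowest level elsewhere subtracted, the ratio turned to 0.41 in mural-like and 0.0615 in oligodendrocyte-lineage-like cells. Dividing fibroblasts had the highest level of the sub-types, 214 CPM (173 to 263) and 341 CPM (279 to 413).

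**Figure D4:**
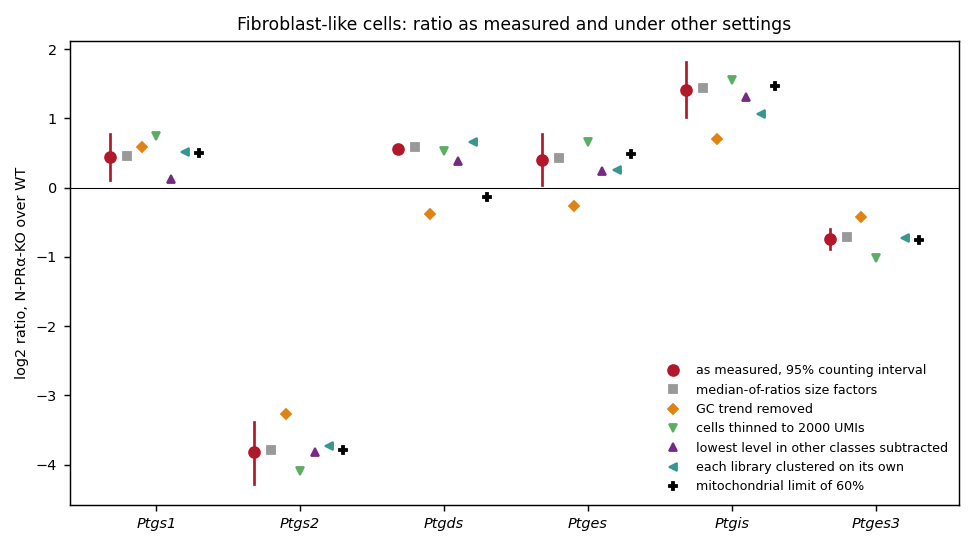
log2 ratio (N-PRα-KO over WT) of each member in fibroblast-like cells as measured, with its 95% counting interval, and under other settings. Ptgs2 and Ptges3 lie below 0 and Ptgs1 and Ptgis above 0 under every setting drawn, while Ptgds is at -0.38 with the GC trend removed and at -0.13 with the mitochondrial limit of 60% and mitochondrial UMIs left out of totals, and Ptges at -0.27 with the GC trend removed.

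Genes on either side of these steps were taken from a list of 37. In fibroblast-like cells 12 of them reached 20 CPM in a library: 2 were at least 2-fold higher in N-PRα-KO (background 14.8%) and 3 at least 2-fold lower (background 8.78%). Their median log2 ratio was -0.49, against -0.03 over all measured genes. Among sources of arachidonic acid, the secreted phospholipase gene Pla2g12a was 43.8 CPM in N-PRα-KO and 14.1 CPM in WT (log2 ratio 1.63, 1.19 to 2.10), and the lipase gene Mgll 21.9 and 17.1 CPM. Pla2g4a, the cytosolic phospholipase, which was named after its values were seen, was 10.5 and 21.8 CPM (log2 ratio -1.06, -1.54 to -0.58). The reductase genes Akr1b3 and Cbr1, which act on prostaglandins, had 60.95 and 92.2 CPM, and 47.5 and 33.0 CPM.

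Among receptors, the D2 receptor gene Ptgdr was highest in fibroblast-like cells in both libraries, with 12.1 CPM (88 UMIs) in N-PRα-KO and 48.3 CPM (164 UMIs) in WT, a log2 ratio of -1.997 (-2.39 to -1.61). The F2-alpha receptor gene Ptgfr had 12.4 and 17.1 CPM. The genes Zadh2 and Ptgr2, which encode enzymes that reduce prostaglandin breakdown products, had 34.1 and 47.4 CPM, and 31.5 and 45.7 CPM. In the lipoxygenase branch, Ltc4s, the leukotriene C4 synthase, had 200 UMIs (27.5 CPM) in N-PRα-KO and 5 UMIs (1.47 CPM) in WT, beside 391 and 115 CPM in microglia-like cells, the class where it was highest in both. Lta4h, the leukotriene A4 hydrolase, had 88.2 and 64.2 CPM. Anxa1, a glucocorticoid-induced inhibitor of phospholipase A2, had 40.6 and 139 CPM, a log2 ratio of -1.77 (-1.99 to -1.56). Microglia-like cells also held Hpgds, the haematopoietic D2 synthase, at 618 and 709 CPM, and Tbxas1, the thromboxane synthase, at 66.2 and 75.6 CPM, both named after their values were seen.

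Over the 19 sums of class and library with at least 50 cells, the genes most like each member that reached 50 CPM, which Ptges did not, were listed by Pearson correlation of log2(CPM + 1) among 8563 genes, as a description. The points share 2 libraries and their depth. Ptgs1 ran with Nfam1 (0.95), Kctd12 (0.94) and Alox5ap (0.93), Ptgds with Slc6a13 (0.98), Igfbp6 (0.96) and Six2 (0.96), and Ptgis with Wfdc1 (0.95), Col18a1 (0.94) and Hspg2 (0.93). Ptgs2 ran with Tgoln1 (0.85), the chemokine gene Ccl2 (0.79) and Lamp2 (0.79). Ptges3 ran with Cacybp (0.92), Pcm1 (0.90) and the heat shock gene Hsph1 (0.89).

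In the files' GRCm38 build, with positions from GENCODE M21, Ptgs2 lies at chr1:150100031-150108227 and Ptges3 at chr10:128058954-128077272, both on the plus strand. The other members lie on chromosome 2: Ptgds at chr2:25466709-25470046, Ptges at chr2:30889471-30929863 and Ptgis at chr2:167191805-167240604 on the minus strand, and Ptgs1 at chr2:36230426-36252272 on the plus strand.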

How the data were processed

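The deposited tables give raw UMI counts, with cells in rows and genes in columns. The file headers name version 1.10 (N-PRα-KO) and version 1.10.1 (WT) of the BD Rhapsody WTA Analysis Pipeline as the source of the authors' counts, with GENCODE M19 genes on GRCm38 and cells called by the pipeline. No aligner is named in the sources used. The pipeline versions differ with genotype, so a processing batch cannot be told apart from it.

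Barcodes under 300 genes or over 25% mitochondrial UMIs were dropped. Scrublet (scanpy 1.11.5) marked 10 N-PRα-KO cells (0.238%) and 174 WT cells (1.73%), and 4186 and 9895 cells remained without them. Under 0.5% of marked cells means little for N-PRα-KO, so doublets there are taken as not removed. The 2000 most variable genes of each library were pooled, without the members and the listed pathway genes. On these, 30 components and 20 neighbours gave 29 Leiden clusters (leidenalg 0.10.2, resolution 1). Clusters were named from marker lists, and 9 classes had at least 50 cells in each library. Fibroblast-like cells were clustered again after centring each library (9 sub-clusters). Arachnoid-like cells are sub-clusters 1 (1 N-PRα-KO and 292 WT cells) and 2 (291 and 0), so the libraries fill different sub-clusters of 1 sub-type, and pial-perivascular-like cells are sub-clusters 0 (501 and 4), 4 (97 and 63) and 5 (3 and 86). A sub-type name needed a mean marker log2 fold of 0.3 within libraries that held at least 20 of its cells. The threshold of 0.3 was set after the values were seen. Scored over both libraries together instead, sub-clusters 0, 1 and 4 got no name, 2 was pial-like, 5 dividing-like, and 7 and 8 interferon-responding-like. Sub-clusters 7 and 8 had under 20 cells in each library and have no name here. Sub-cluster 8 (3 and 18 cells) is led by oligodendrocyte precursor genes such as Lhfpl3 and Cntn1.

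UMIs were summed per class and library. For ratios, counts under 3 were set to 3, and no ratio is given for those here. The GC trend was a lowess of log2 ratio on GC content of the last 500 transcript bases (GENCODE M21, same build). The interval method was tested on simulated Poisson counts only. These hold no spread between cells, so that test cannot show how the intervals do with such spread. All members are reported. Of the other pathway genes, the 2 with the highest CPM per role are named. Leading genes by fold are named for some sub-clusters, but not for the pial-perivascular-like and dividing ones. The members and all lists were chosen with earlier results of these data known. The intervals show counting error only and leave out spread between cells and between libraries, so they understate the uncertainty. Leaving out sub-cluster 7 moved the fibroblast Ptgds ratio out of its interval.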

Additional observations from a re-analysis of the deposited data

Results flagged for a closer look

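The Ptgds log2 ratio pointed different ways in 2 fibroblast sub-types: 3.25 in dural-like cells, higher in the N-PRα-KO library, and -0.49 in pial-perivascular-like cells, lower in it. With 1 library per genotype the difference between these ratios was not tested. The N-PRα-KO level in pial-perivascular-like cells, 1567 CPM, lies near the 1402 to 2495 CPM of the same library in the 8 non-fibroblast classes in which each library had 50 cells or more. Of the 1646 WT Ptgds UMIs in pial-perivascular-like cells, 1302 lay in sub-cluster 4. Its 63 WT cells also had the arachnoid-list gene Gjb2 at 2198 CPM. The pooled ratio may thus compare unlike cells, which was not tested.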

How the results depend on the processing

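No paired analysis was possible because each genotype has 1 library, and for the same reason no library could be left out. In fibroblast-like cells Ptgs1, Ptgs2, Ptgis and Ptges3 kept their direction under every alternative that gave a value, with log2 ratios from 0.12 to 0.75 for Ptgs1, -4.10 to -3.27 for Ptgs2, 0.70 to 1.55 for Ptgis and -1.01 to -0.43 for Ptges3. The GC trend moved Ptgs2 to -3.27, Ptgis to 0.70 and Ptges3 to -0.43, and thinning to 2000 UMIs moved Ptges3 to -1.01. Ptgds (0.55) became -0.38 with the GC trend removed and -0.13 with the mitochondrial limit of 60%, and Ptges (0.40) became -0.27 with the GC trend removed. The other values of Ptgds were 0.58 with median-of-ratios size factors, 0.62 with Scrublet calls kept, 0.66 with each library clustered on its own, 0.52 after thinning, 0.39 with the lowest level in other classes subtracted, 0.39 without sub-cluster 7, 0.67 without sub-cluster 8 and 0.50 with mitochondrial UMIs left out of totals. The alternatives without either sub-cluster, without Ptgds or mitochondrial UMIs in the totals, and with the limit of 60% were chosen after seeing the data. Without the filter at 20 CPM, 32 pathway genes gave a median of 0.12, with some counts under 3 among them set to 3. In other classes, subtracting the lowest level elsewhere turned the ratio of Ptgds to -0.38 in astrocyte-like and -0.88 in microglia-like cells, of Ptges3 to 0.41 in mural-like and 0.0615 in oligodendrocyte-lineage-like cells, and of Ptgs1 to -0.0049 in neuronal-lineage-like and -2.56 in oligodendrocyte-lineage-like cells, and thinning turned Ptgs1 in astrocyte-like cells to -0.10. Apart from the subtraction and the filters, the cause of these changes was not tested. A limit of 500 genes and 10% mitochondrial UMIs left 87 N-PRα-KO and 9 WT fibroblast-like cells, too few for a value. Sub-clustering without centring the libraries moved 3 sub-type ratios out of their intervals and kept 13 within. It gave 48 dural-like N-PRα-KO cells in place of 61, and a sub-cluster with 31 N-PRα-KO cells was named arachnoid-like.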
